A study of Mus musculus with 2 samples.

Results

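The cells described here are the cycling epithelial cells of 2 mouse prostate tumour libraries, 62 cells of the DoubleTg library and 379 cells of the TripleTg library. They were chosen by their own transcripts. A cell had to hold over 200 and under 7000 detected genes, under 15% mitochondrial molecules, at least 1 molecule of Epcam (an epithelial adhesion molecule), none of Ptprc (the pan-leukocyte antigen CD45), and at least 1 molecule of 6 or more of 14 cell cycle genes. These 14 genes, called the rule genes below, were Mki67, Top2a, Cdk1, Ccnb1, Ccnb2, Ccna2, Birc5, Ube2c, Cenpf, Tpx2, Rrm2, Cenpe, Nusap1 and Prc1. In all, 441 of 16145 Epcam+ Ptprc- cells met the rule, out of 20090 cells within the limits on genes and mitochondrial share and 21564 cells in both matrices.

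The study asked how HGF/MET signalling and stabilised β-catenin act together in prostate tumours. DoubleTg mice carried the human HGF transgene hHGFtg and the human MET transgene hMETtg, and PBCre, a Cre recombinase under the probasin promoter, switched hMETtg on in prostate epithelium by removing a stop cassette behind the broadly active CAG promoter. TripleTg mice carried the same 3 alleles and also a Ctnnb1 allele whose exon 3 is removed by the same Cre, so that β-catenin escapes degradation. The DoubleTg tissue was labelled prostatic adenocarcinoma and the TripleTg tissue prostatic carcinoma, both from mice of mixed C57BL/6 and C3H SCID background. Each genotype was 1 library of dissociated prostate tissue, and neither the number of animals in a library nor their age was given in the sources used here. Genotype, animal and library therefore cannot be told apart, and no p-value is given in what follows. All intervals are exact 95% intervals that cover counting error only.

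A dividing cell copies its DNA in S phase and then separates the copies in G2 and mitosis. Genes for replication are switched on mainly through E2F factors at the border of G1 and S phase, and genes for mitosis are switched on later through promoters that hold a cell cycle homology region (CHR), usually with CCAAT boxes that bind NF-Y. In the adult prostate most luminal and basal cells are quiescent, and dividing cells are few outside regeneration and tumour growth.

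Each cycling cell was compared with 1 cell of its own library that had the same depth and only 0 or 1 of the rule genes. These are called the reference cells. Depth was measured in unique molecular identifiers (UMIs), which count single RNA molecules. The cycling cells held a median of 46784.5 UMIs in DoubleTg, with a range of 3655 to 113955, and 42618 in TripleTg, with a range of 5081 to 109455. Their reference cells held a median of 46796 and 42614 UMIs. Without this match depth would have differed, since the median of all 7936 DoubleTg cells with 0 or 1 rule genes was 20744 UMIs and that of the 6477 such TripleTg cells was 20547. The cycling cells had a median of 5930 detected genes in DoubleTg and 5504 in TripleTg, against 5713.5 and 5096 in the reference cells. No barcode was shared between cycling cells of both libraries, although the 2 matrices shared 30 barcodes.

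The number of rule genes per cell fell away quickly and then had a long tail. In DoubleTg 72.0% of the Epcam+ Ptprc- cells had none and 21.8% had 1, and in TripleTg these shares were 60.3% and 23.9%. The cycling cells had a median of 9.5 rule genes in DoubleTg and 11 in TripleTg, and all 14 were detected in 4 and 55 cells. Cells just outside the rule, with 5 of the genes, numbered 16 in DoubleTg and 43 in TripleTg and held a median of 7 and 9 rule gene UMIs. Cells just inside it, with 6 of the genes, numbered 9 and 48 and held a median of 13 and 10.

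**Figure D1:**
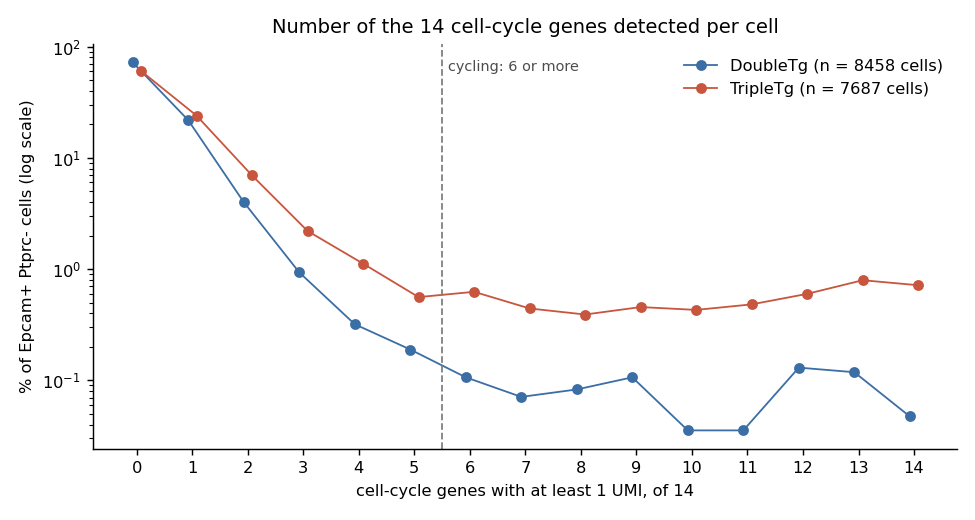
Share of Epcam+ Ptprc- cells (vertical axis, percent, log scale) by how many of the 14 rule genes had at least 1 UMI (horizontal axis), for 8458 DoubleTg cells in blue and 7687 TripleTg cells in red. The dashed line marks the limit of 6 genes; to its right the TripleTg points lie above the DoubleTg points, and 0.733% and 4.93% of the cells lie there.

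Mki67, the gene of the proliferation antigen Ki-67, had a UMI in 51 of 62 DoubleTg cycling cells (82.3%) and in 333 of 379 TripleTg cycling cells (87.9%). In the reference cells it was seen in none of 62 and in 2.11%. Because Mki67 and the other 13 genes chose the cells, their levels describe the choice and are no result. Birc5, which encodes the chromosomal passenger protein survivin, had the widest detection, 98.4% of the DoubleTg and 92.9% of the TripleTg cycling cells. Ube2c, the E2 enzyme that works with the anaphase-promoting complex, was seen in 93.5% and 86.0%, at 221 and 222 counts per 1e+06 UMIs (CPM). Ccna2, encoding cyclin A2, had the lowest detection in both, 51.6% and 52.5%. Summed over the 14 genes the level was 1071 CPM in DoubleTg cycling cells against 11.5 CPM in their reference cells, and 1278 CPM against 12.4 CPM in TripleTg.

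The levels of the rule genes in the cycling cells of the 2 libraries are given side by side, again only as a description of the chosen cells. Top2a, encoding topoisomerase IIα, was at 88.7 CPM in DoubleTg and 191 CPM in TripleTg, a log2 ratio of 1.11 (0.93 to 1.29). Tpx2, which activates Aurora A on the spindle, was also higher in TripleTg (34.7 and 55.3 CPM, log2 ratio 0.67), as was Prc1, which bundles the microtubules of the central spindle (68.1 and 99 CPM, 0.54). Ccnb2, encoding cyclin B2, was lower in TripleTg (91.0 and 62.2 CPM, -0.55, interval -0.74 to -0.35). Ube2c (0.01), Cenpe (-0.02) and Rrm2 (-0.10) had log2 ratios near 0. The median over all 9817 genes in this comparison was -0.16.

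Free RNA in the droplets can give a cell a UMI of a gene it does not express, so detection was also read in Epcam- Ptprc+ cells, which met the leukocyte gate. Mki67 had a UMI in 5.95% of the 336 DoubleTg and 12.6% of the 230 TripleTg cells of this gate, and Top2a in 9.23% and 5.22%. Those cells held a median of 7676 and 8524 UMIs, and 3 of 336 and 4 of 230 of them themselves had 6 or more of the 14 genes.

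The promoters of the rule genes show which sequences the 14 genes share. RefSeq promoter stretches (build GRCm38.p6) were matched by symbol for 12 of the 14 genes, all but Ccna2 and Tpx2. Each window ran from 250 bases before to 50 bases after an annotated start. The motifs searched on both strands were the CHR as TTTGAA, the CCAAT box as CCAAT, and the E2F site as TTTCCCGC, TTTGGCGC or TTTCGCGC. Each motif was counted on its own, and matches may share letters, as 2 E2F forms on opposite strands can. A CHR was present in 7 of 12 rule genes (58.3%) and in 20.2% of all 27025 genes with a promoter. A CCAAT box was present in 10 of 12 (83.3%) against 41.1% of all genes, and an E2F form in 1 of 12 (8.33%) against 2.12%. 5 of these promoters and that of the replication gene Mcm5 are printed below from 170 bases before to 30 bases after the start, 5′ to 3′ on the strand of the gene, with the motifs in capitals. They are shown because they range from several motifs in different layouts to none, in Birc5.

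Cdk1: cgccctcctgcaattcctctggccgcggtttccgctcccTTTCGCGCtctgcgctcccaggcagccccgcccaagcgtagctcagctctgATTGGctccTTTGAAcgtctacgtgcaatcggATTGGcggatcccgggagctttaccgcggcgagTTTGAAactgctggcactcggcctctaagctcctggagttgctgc
Ccnb2: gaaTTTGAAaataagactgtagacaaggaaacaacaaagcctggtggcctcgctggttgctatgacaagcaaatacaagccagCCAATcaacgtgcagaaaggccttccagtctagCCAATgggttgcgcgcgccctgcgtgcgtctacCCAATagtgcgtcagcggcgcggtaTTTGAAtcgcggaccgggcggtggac
Top2a: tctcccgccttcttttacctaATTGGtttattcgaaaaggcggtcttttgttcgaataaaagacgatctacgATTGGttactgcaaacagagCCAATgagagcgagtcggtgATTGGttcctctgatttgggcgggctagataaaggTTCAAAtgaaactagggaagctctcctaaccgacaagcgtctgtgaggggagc
Mki67: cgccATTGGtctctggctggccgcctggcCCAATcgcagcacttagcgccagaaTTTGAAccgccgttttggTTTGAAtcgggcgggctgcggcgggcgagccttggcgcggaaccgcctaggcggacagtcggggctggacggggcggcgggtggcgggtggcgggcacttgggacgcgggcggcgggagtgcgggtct
Birc5: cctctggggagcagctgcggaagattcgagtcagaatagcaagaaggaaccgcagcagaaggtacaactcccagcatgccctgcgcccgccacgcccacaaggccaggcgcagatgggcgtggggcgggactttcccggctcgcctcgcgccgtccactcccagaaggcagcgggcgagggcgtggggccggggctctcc
Mcm5: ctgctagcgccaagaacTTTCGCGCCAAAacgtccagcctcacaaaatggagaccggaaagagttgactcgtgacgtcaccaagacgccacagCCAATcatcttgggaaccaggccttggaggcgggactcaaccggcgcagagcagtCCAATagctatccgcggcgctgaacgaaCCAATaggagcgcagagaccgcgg

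Cdk1 (chr10:69352883-69353082, minus strand) held 2 CHR copies before the start and an E2F form upstream of them. No other of the 12 matched rule genes had an E2F form. Ccnb2 (chr9:70421525-70421724, minus strand) had 3 CCAAT boxes in this stretch, Top2a (chr11:99024160-99024359, minus strand) 4 such boxes on either strand before a reversed CHR, and Mki67 (chr7:135716350-135716549, minus strand) 2 CHR copies between the boxes and the start. Birc5 (chr11:117849067-117849266, plus strand) held none of these letters in its window, although it had the widest detection. Mcm5 (chr8:75109339-75109538, plus strand) had a pair of overlapping E2F forms, which the capitals run together.

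The same count was made over 2 larger groups of genes that the rule did not use. Of 69 matched genes of kinetochore, mitotic kinase and spindle function, 40 held a CHR (58.0%), 48 a CCAAT box (69.6%) and 4 an E2F form (5.80%). Of 42 matched replication genes, 9 held a CHR (21.4%), 25 a CCAAT box (59.5%) and 18 an E2F form (42.9%). Of 63 ribosomal protein genes, 4 held a CHR (6.35%) and 19 a CCAAT box (30.2%). A match of letters is a description of the sequence and does not show that a factor binds there.

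Cycling cells were a larger share of the epithelium in the TripleTg library. They made up 62 of 8458 Epcam+ Ptprc- cells in DoubleTg (0.733%, 0.562 to 0.939) and 379 of 7687 in TripleTg (4.93%, 4.46 to 5.44), a ratio of 6.73 (5.13 to 8.95). When 3 of the 14 genes were enough the ratio was 4.05 (3.43 to 4.79), and with 4 it was 5.32 (4.31 to 6.63). With 8 required it was 6.95 (5.10 to 9.67), and with 10 it was 8.23 (5.65 to 12.4). After each cell was thinned to 10000 UMIs, with 2084 DoubleTg and 1644 TripleTg cells too shallow left out, 26 of 6374 cells (0.408%) and 203 of 6043 cells (3.36%) met the rule, a ratio of 8.24 (5.46 to 12.9). TripleTg shares were also higher at equal numbers of detected genes. Among cells with 5000 to 6000 genes 19 of 1454 DoubleTg (1.31%) and 140 of 1063 TripleTg cells (13.2%) were cycling, and among cells with 6000 to 7000 genes 29 of 1017 (2.85%) and 115 of 611 (18.8%).

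The upper limit on genes bears on the DoubleTg share, because only the DoubleTg matrix holds cells beyond it. Of 411 DoubleTg Epcam+ Ptprc- cells with 7000 genes or more, 60 met the rule on the 14 genes (14.6%, 11.3 to 18.4). With them the DoubleTg share was 122 of 8869 cells (1.38%). Outside the epithelial gate, 0 of 1314 DoubleTg Epcam- Ptprc- cells met it, which allows a share of up to 0.280%, and 9 of 851 TripleTg cells did (1.06%).

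The label of the cells was checked against markers. Krt8 and Krt18, the keratin pair of simple epithelium, were at 4643 and 3485 CPM in DoubleTg cycling cells and at 4496 and 4170 CPM in TripleTg cycling cells. Epcam was at 2323 CPM against 2141 CPM in the DoubleTg reference cells and at 1586 against 1594 CPM in TripleTg. Across 7 epithelial genes the median log2 ratio of cycling over reference cells was 0.06 in DoubleTg and -0.24 in TripleTg. The 9 immune markers summed to 180 CPM against 340 CPM in the DoubleTg reference cells and to 703 against 1334 CPM in TripleTg, most of it from Cd52 and Cd74, while C1qa was at 0 in DoubleTg and 3.81 CPM in TripleTg. The 6 fibroblast markers summed to 150 against 114 CPM and 119 against 150 CPM, with Dcn as the main source. The 6 endothelial markers summed to 2.95 against 2.29 CPM and 26.6 against 18.0 CPM, and the 6 smooth muscle markers to 10.8 against 87.4 CPM, where 1 reference cell held 97.1% of the Acta2 UMIs, and 35.6 against 33.0 CPM. Of the cycling cells 2 of 62 and 9 of 379 lay in clusters that carried 3 or more markers of another cell type, and the share without such clusters was 0.770% and 5.21%. Scrublet, a doublet caller, marked 1 of 62 DoubleTg cycling cells and 3 of 62 reference cells, and it could not be used in TripleTg, where it marked no cell.

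Across all genes the cycling cells differed from their reference cells mostly upward. Of 9260 DoubleTg genes at 5 CPM or more in either group, 791 (8.54%) were at least 2-fold higher and 272 (2.94%) at least 2-fold lower. Of 8782 TripleTg genes 585 (6.66%) were higher and 211 (2.4%) lower. The median log2 ratio of cycling over reference CPM across these ranked genes was 0.13 in DoubleTg and 0.14 in TripleTg, and rescaling with TMM factors took both medians to 0.00. Ratios above 0 were found for 60.7% of the ranked DoubleTg genes and 64.3% of the ranked TripleTg genes, the shares against which counts above 0 in the lists below are set. Counts past 2-fold in every list below are likewise set against 8.54% and 6.66% higher and 2.94% and 2.4% lower. A gene that is silent in reference cells passes the 5 CPM limit only through the cycling cells, so the counts and medians over the ranked genes of the lists below describe the cells and are not read as support. The DoubleTg reference cells held 3054566 UMIs and the TripleTg ones 17075687. Where the reference cells had no UMI the ratio was taken against 3 UMIs and is written as at least that value, which leaves out the counting error of the cycling cells. Sums under 3 UMIs were likewise set to 3, which caps ratios sooner in DoubleTg, and so medians of lists with silent reference genes are not comparable between the libraries.

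Replication genes were higher in the cycling cells of both libraries. Of 19 genes that license and fire origins, 16 were ranked in DoubleTg and 15 in TripleTg, each of them at least 2-fold higher, with median log2 ratios of 2.68 and 2.41. Mcm5, a subunit of the MCM helicase, was at 46.2 CPM against 0.982 CPM (3 UMIs) in DoubleTg, a log2 ratio of 5.55 (3.98 to 7.85), and at 37.1 against 2.99 CPM in TripleTg (3.64). Mcm6 and Mcm7, other subunits of that ring, had ratios of 2.48 and 3.41 in DoubleTg and 2.97 and 2.10 in TripleTg. Orc6, of the origin recognition complex, was the lowest of the abundant members in DoubleTg, 23.9 against 9.17 CPM (1.38), and reached 41.7 against 11.9 CPM in TripleTg (1.81). Cdt1, which loads the helicase, and Gmnn, its inhibitor geminin, were both higher, at 3.02 and 2.25 in DoubleTg and 2.34 and 2.74 in TripleTg.

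The machinery of the replication fork followed the same pattern. Of 32 genes, 29 were ranked in DoubleTg and 28 in TripleTg, of which 26 and 27 were at least 2-fold higher, with medians of 2.34 and 2.55. Lig1, which joins Okazaki fragments, was at 89.7 against 8.51 CPM (3.40) and 85.8 against 9.55 CPM (3.17). Pcna, the sliding clamp, had a smaller ratio, 68.4 against 19.3 CPM (1.82, 1.40 to 2.27) and 77.8 against 23.5 CPM (1.73, 1.57 to 1.89). Uhrf1, which carries DNA methylation through replication, was at 41.2 CPM in DoubleTg cycling cells against 1 UMI in their reference cells, and at 42.1 against 1.35 CPM in TripleTg (4.97). Its partner Dnmt1, the maintenance methyltransferase, was at 35.0 against 5.24 CPM (2.74) and 62.1 against 11.7 CPM (2.41). Pold3, a subunit of DNA polymerase δ, was among the lowest at 0.83 and 0.74.

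Nucleotide synthesis genes ranged widely. Of 20 genes, all ranked in both libraries, 10 were at least 2-fold higher in DoubleTg and 14 in TripleTg, with medians of 1.06 and 1.36. Tk1, which salvages thymidine, was at 46.5 against 1.31 CPM (5.15) and 32.5 against 0.644 CPM (5.66). Tyms, thymidylate synthase, had ratios of 4.35 and 3.56, and Rrm1, the large subunit of ribonucleotide reductase, of 3.85 and 3.46. Mthfd2, a mitochondrial folate enzyme, was at 52.0 against 59.3 CPM (-0.19) and 19.7 against 19.4 CPM (0.02).

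Histone and chromatin genes were higher in the cycling cells and differed between the libraries gene by gene. Of 19 genes 18 were ranked in each, and 15 and 16 were at least 2-fold higher, with medians of 1.98 and 2.59. The replication-dependent linker histone gene Hist1h1b was at 68.1 against 1.31 CPM in DoubleTg (5.70) and at 205 against 2.81 CPM in TripleTg (6.19). It was seen in 46.8% of the DoubleTg and 60.2% of the TripleTg cycling cells, and its level was higher in TripleTg by a log2 ratio of 1.59 (1.38 to 1.80). Hist1h2ap, an H2A gene, went the other way, at 292 against 4.91 CPM in DoubleTg (5.90) and 95.3 against 2.99 CPM in TripleTg (5.0), a ratio between the cycling cells of -1.62 (-1.74 to -1.50). Replication-dependent histone genes are near-identical copies whose messages mostly lack a poly(A) tail, so their counts from a poly(A)-primed library are uncertain. H2afz, the variant H2A.Z, was the most abundant gene of the list at 1257 and 1561 CPM, with ratios of 1.99 and 2.0. Hmgb2, a chromatin protein that loosens DNA, was at 380 against 88.7 CPM (2.10) and 590 against 56.6 CPM (3.38). Cenpa, the histone that marks centromeres, was at 99.5 CPM against no UMI in DoubleTg, at least 6.66 on the log2 scale, and at 121 against 2.64 CPM in TripleTg (5.52).

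Repair and chromosome structure genes were next in order. Of 24 DNA repair genes 15 and 16 were ranked, with 12 and 13 at least 2-fold higher and medians of 2.66 and 2.71. Topbp1, an activator of the ATR checkpoint, was at 20.9 against 3.60 CPM (2.54) and 36.1 against 7.96 CPM (2.18). Parp1, which senses strand breaks, was at 21.6 against 17.7 CPM (0.29) and 45.0 against 21.4 CPM (1.07). Of 15 cohesin and condensin genes, all ranked, 10 and 12 were at least 2-fold higher, with medians of 3.21 and 3.23. The condensin core Smc2 was at 59.9 against 1.64 CPM (5.19) and 119 against 4.28 CPM (4.80). The cohesin subunit Stag2, by contrast, had ratios of 0.30 and 0.27.

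Mitotic genes that the rule did not use were higher as well. Of 28 kinetochore and checkpoint genes, 24 of 26 ranked in DoubleTg and 22 of 24 in TripleTg were at least 2-fold higher, with medians of 2.93 and 4.64. Spc24, of the NDC80 complex that grips microtubules, was at 82.5 CPM against 2 UMIs in DoubleTg and 65.9 against 1.52 CPM in TripleTg (5.44). Cenpw, a centromere protein, had a ratio of 4.68 in both libraries. Zwint, a kinetochore scaffold partner, was an exception, at 101 against 79.9 CPM (0.34) and 91.8 against 90.3 CPM (0.02), so its message was nearly as abundant in the reference cells.

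Among 22 genes of mitotic kinases and the anaphase-promoting complex, each of 20 ranked in DoubleTg and 20 of 21 in TripleTg were at least 2-fold higher, with medians of 3.33 and 4.45. Cdca8, the passenger protein borealin, was at 67.8 against 1.31 CPM (5.69) and 96.3 against 1.58 CPM (5.93). Pbk, a mitotic kinase, was at 48.4 CPM against no UMI in DoubleTg, at least 5.62, and at 62.7 against 0.176 CPM (3 UMIs) in TripleTg, 8.48 (6.93 to 10.76). Cdkn3, a phosphatase that acts on CDK1 and CDK2, was at 39.9 CPM against 1 UMI and at 29.0 against 0.176 CPM (7.37). Pttg1, securin, was higher in DoubleTg cycling cells, 151 against 14.4 CPM (3.39, 2.94 to 3.87), than in TripleTg, 79.9 against 21.6 CPM (1.89, 1.72 to 2.06). Ube2s, the chain-extending E2 partner of Ube2c, was already abundant in reference cells, at 190 and 141 CPM, and reached 467 and 499 CPM (1.30 and 1.83). Fzr1, which activates the complex in G1, was lowest at 1.18 and 0.85.

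Spindle and cytokinesis genes completed the set. Of 31 genes 26 of 27 and 27 of 29 ranked were at least 2-fold higher, with medians of 3.74 and 4.95. Stmn1, which takes microtubules apart, was at 501 against 10.8 CPM (5.54) and 585 against 46.3 CPM (3.66). Racgap1, which sets the cleavage plane, was at 44.2 CPM against no UMI in DoubleTg, at least 5.49, and at 67.4 against 0.410 CPM (7.36). Hmmr, a spindle-associated hyaluronan receptor, was at 31.8 CPM against no UMI, at least 5.01, and at 67.0 against 0.234 CPM (8.16). Tubulin genes were uneven, with Tubb5 at 2.97 and 2.44 and Tuba1b at 2.75 and 2.49, while Tuba1c was at 0.35 and 0.21.

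Taking the 81 mitotic and 51 replication genes as sums avoids the limit at 3 UMIs. The mitotic genes summed to 4776 against 1152 CPM in DoubleTg (2.05) and to 5519 against 1486 CPM in TripleTg (1.89). The replication genes summed to 1353 against 259 CPM (2.39) and 1386 against 283 CPM (2.29). Per gene, the mitotic median was 3.37 in DoubleTg and 4.72 in TripleTg, but 31 of those genes were at 0 in the DoubleTg reference cells against 1 in TripleTg. With 10 reference cells for each cycling cell the medians were 5.10 and 4.75, so the order of the libraries turned.

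**Figure D2:**
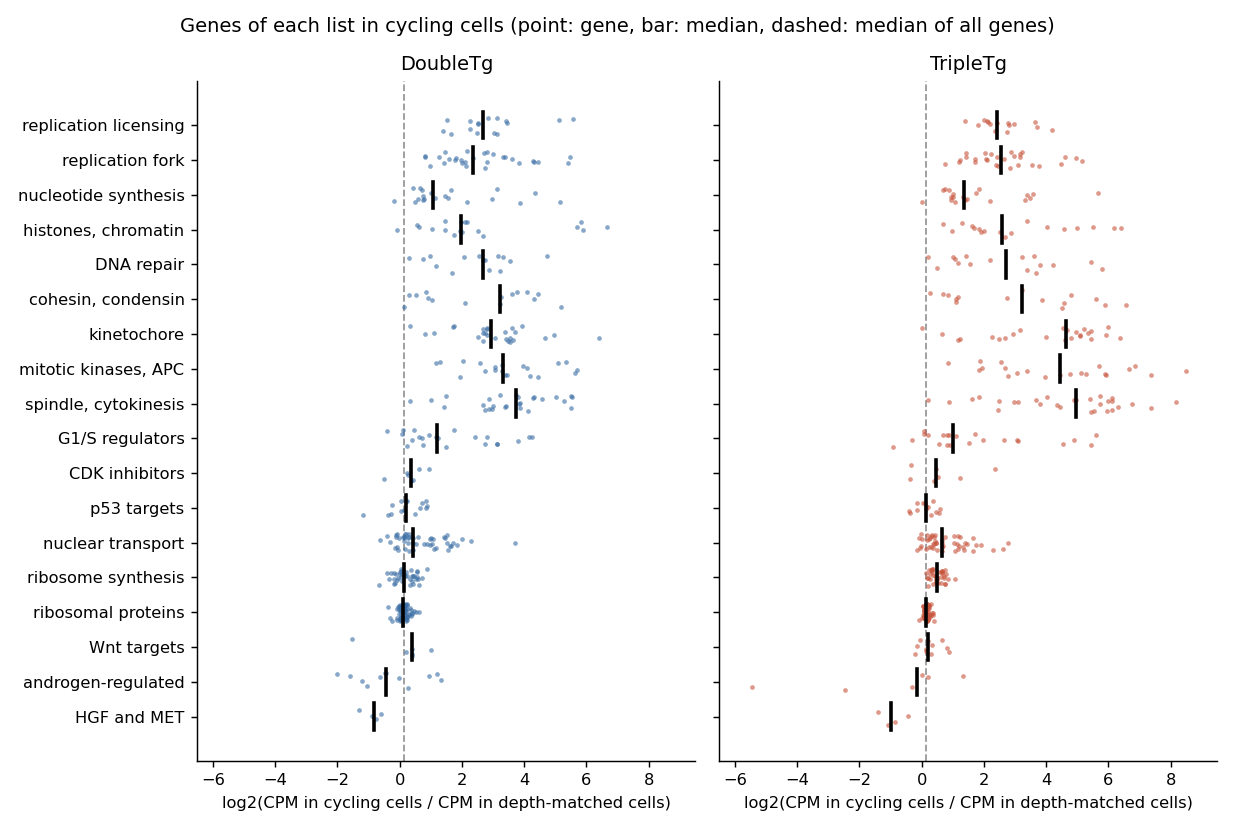
Log2 ratio of CPM in cycling over depth-matched reference cells (horizontal axis) for each ranked gene of 18 lists (vertical axis), with DoubleTg in blue and TripleTg in red, a bar at each list's median and dashed lines at the all-gene medians of 0.13 and 0.14. Lists of replication and mitosis sit at medians from 2.34 to 4.95, and ribosomal proteins sit at 0.12 and 0.13.

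Genes that govern the entry into S phase were mixed. Of 24 regulators 22 were ranked in each library, with medians of 1.21 and 1.02. At least 2-fold higher were 12 and 11 of them, against 8.54% and 6.66% of all genes. Among the mitogen-sensing D cyclins, Ccnd1 was at 101 against 76.9 CPM (0.39) and 92.7 against 52.9 CPM (0.81), and Ccnd2 was at 7.20 against 9.49 CPM (-0.40) and 7.03 against 13.2 CPM (-0.91). Their partner Cdk4 was at 83.5 against 49.4 CPM (0.76) and 116 against 53.6 CPM (1.11), whereas Cdk6 was at 0.11 and -0.31. Ccne2, encoding cyclin E2, was at 8.51 against 0.982 CPM (3.12) and 6.91 against 0.234 CPM (4.88). Foxm1, the factor that drives mitotic genes, was at 8.51 CPM against no UMI in DoubleTg, at least 3.12, and at 12.6 against 0.293 CPM in TripleTg (5.43). The repressor E2f4 had ratios of 0.09 and 0.08.

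Of 7 CDK inhibitors, all ranked, 0 were at least 2-fold higher in DoubleTg and 2 in TripleTg, against 8.54% and 6.66% of all genes, with medians of 0.35 and 0.46. None was 2-fold lower, against 2.94% and 2.4% of all genes. The 2 were inhibitors of CDK4 and CDK6, Cdkn2d at 9.95 against 1.93 CPM (2.36, 1.82 to 2.95) and Cdkn2c at 5.39 against 2.28 CPM (1.24, 0.68 to 1.82). In DoubleTg they were at 0.41 and 0.96. Cdkn1a, encoding p21, was at 183 against 154 CPM (0.25, 0.07 to 0.43) and 241 against 175 CPM (0.46, 0.39 to 0.53). Cdkn2a, the p16 and p19ARF locus, had ratios of 0.27 and 0.39, and Cdkn1b, encoding p27, of 0.64 and 0.52. Of 16 p53 targets 15 and 14 were ranked, and none was at least 2-fold higher, against 8.54% and 6.66% of all genes. Fas alone was 2-fold lower, in DoubleTg (5.24 against 11.8 CPM, -1.17), against 2.94% and 2.4% of all genes. The medians of 0.19 and 0.14 were near those of all genes. Bax, a pro-apoptotic gene, was at 0.86 and 0.58, and Mdm2, the ligase that degrades p53, at 0.19 and 0.36.

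Single cells were placed by their S phase and mitotic UMIs after thinning to 10000 UMIs, which left 60 DoubleTg and 374 TripleTg cycling cells. The 51 replication genes gave a median of 7 UMIs (0 to 64) in DoubleTg and 11 (0 to 58) in TripleTg, against 2.5 and 2 in the reference cells. The 81 mitotic genes gave 43.5 (13 to 109) and 54 (10 to 158), against 11 and 14. At least 10 replication UMIs were found in 23 of 60 and 207 of 374 cycling cells, and at least 20 mitotic UMIs in 54 and 349. Both held in 22 and 204 cells. Across cells the 2 sums had a Spearman correlation of 0.59 in DoubleTg and 0.38 in TripleTg, a description over cells of 1 library each that share the thinned depth.

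**Figure D3:**
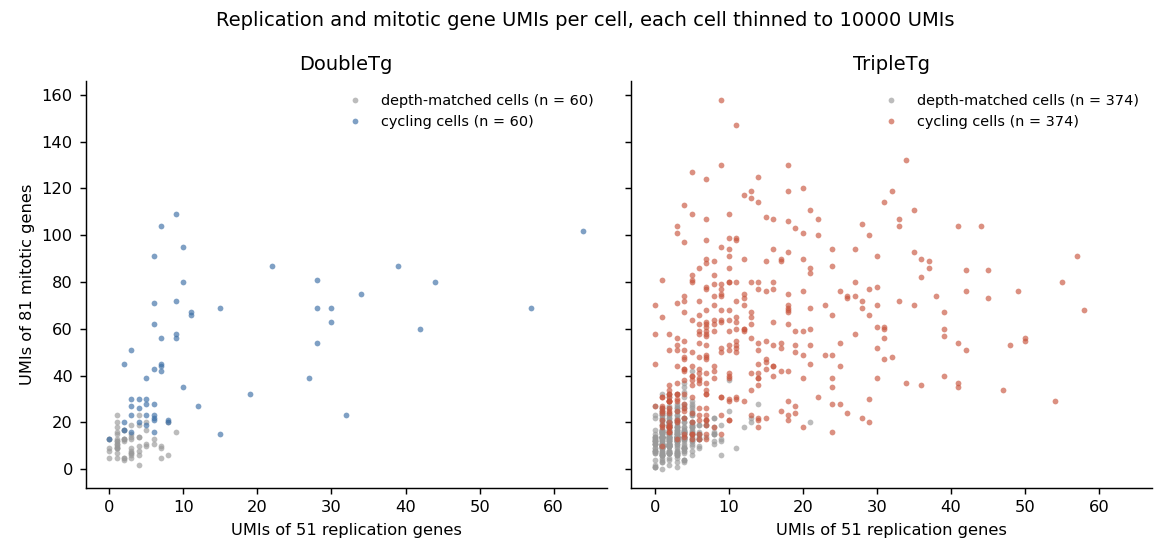
UMIs of 81 mitotic genes (vertical axis) against UMIs of 51 replication genes (horizontal axis) in single cells thinned to 10000 UMIs, for 60 DoubleTg and 374 TripleTg cycling cells and their reference cells. By their medians the cycling cells lie above and to the right of the reference cells, with median mitotic UMIs of 43.5 and 54 against 11 and 14. Single cycling and reference cells overlap on both axes.

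A rule made mostly of G2 and mitotic genes can miss cells in early S phase. With 10 replication UMIs as the limit, in a separate thinning draw, 74 of 5874 DoubleTg cells (1.26%) and 62 of 4898 TripleTg cells (1.27%) with 0 or 1 rule genes passed. Among cells with 2 to 5 rule genes 19 of 440 (4.32%) and 81 of 771 (10.51%) passed, and among the cycling cells 26 of 60 (43.3%) and 198 of 374 (52.9%). Over all Epcam+ Ptprc- cells at that depth the share was 1.87% (1.55 to 2.23) in DoubleTg and 5.64% (5.07 to 6.25) in TripleTg.

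Ribosomal protein genes had medians close to those of all genes. Of 84 ribosomal protein genes 81 were ranked, none was past 2-fold, and the medians were 0.12 and 0.13. Of these 71 and 80 had ratios above 0, but with TMM factors the medians were -0.01 and 0.00. Rps2, of the small subunit, was at 3209 against 2068 CPM (0.63) and 3946 against 3088 CPM (0.35), and Rps27 was at 2812 against 3646 CPM (-0.37) and 1898 against 2002 CPM (-0.08). Rpl12 and Rps16, which the study examined, were at 0.12 and 0.15 in DoubleTg and 0.08 and 0.17 in TripleTg. In cells thinned to 10000 UMIs, ribosomal protein genes gave a median of 2447.5 UMIs in cycling and 2332.5 in reference cells of DoubleTg, and 2906 and 2847.5 in TripleTg.

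Of 39 genes for ribosome synthesis, all ranked, 27 had ratios above 0 in DoubleTg and 39 in TripleTg, against 60.7% and 64.3% of all genes, with medians of 0.15 and 0.49, or 0.03 and 0.36 with TMM factors. Dkc1, the pseudouridine synthase of small nucleolar particles, was at 37.0 against 22.3 CPM (0.73) and 53.1 against 25.3 CPM (1.07), and was the only one past 2-fold, in TripleTg. Npm1, nucleophosmin, was at 1033 against 696 CPM (0.57) and 1649 against 989 CPM (0.74). Ncl, nucleolin, was at 792 against 624 CPM (0.34) and 950 against 581 CPM (0.71). Gnl3, nucleostemin, differed in sign, at 82.2 against 109 CPM (-0.40) and 80.8 against 58.9 CPM (0.46). Polr1a, the catalytic subunit of RNA polymerase I, was at 12.1 against 7.86 CPM (0.62) and 15.7 against 11.4 CPM (0.47).

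Nuclear transport genes had medians above those of all genes in both libraries. Of 50 genes 49 were ranked, 39 in DoubleTg and 44 in TripleTg had ratios above 0, against 60.7% and 64.3% of all genes, and 16 in DoubleTg and 19 in TripleTg were at least 2-fold higher, against 8.54% and 6.66% of all genes, and none lower, with medians of 0.42 and 0.65. Xpo1, the exportin that carries proteins out of the nucleus, was at 19.97 against 10.1 CPM (0.98) and 26.0 against 11.1 CPM (1.22), and its level in cycling cells differed between the libraries by a log2 ratio of 0.38 (-0.01 to 0.79). The GTPase Ran was at 503 against 259 CPM (0.96) and 620 against 273 CPM (1.18), its binding protein Ranbp1 at 1.04 and 1.37 and its GTPase-activating protein Rangap1 at 1.10 and 1.15. Cse1l, which returns importin α to the cytoplasm, was at 1.52 and 1.02. Of the pore genes, Nup133 of the outer ring was at 2.29 and 1.91 and Nup153 of the nuclear basket at -0.62 and 0.32. Kpna4, an importin α, was lower at -0.15 and -0.16, which is below the all-gene medians.

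Targets of the Wnt/β-catenin pathway differed between the libraries, and much less between cycling and reference cells. Of 12 targets 6 were ranked in DoubleTg and 11 in TripleTg, with medians of 0.39 and 0.19. None was at least 2-fold higher, against 8.54% and 6.66% of all genes, and Nkd1 was at least 2-fold lower in DoubleTg. Axin2, a feedback scaffold, was at 3.60 against 1.96 CPM in DoubleTg and at 70.1 against 77.1 CPM in TripleTg (-0.14). Nkd1, another feedback inhibitor, was at 2.29 against 6.55 CPM in DoubleTg (-1.51) and at 80.9 against 43.9 CPM in TripleTg (0.88). Notum and Tcf7, a secreted inhibitor and a transcription factor, were at 41.3 against 33.3 CPM (0.31) and 40.7 against 25.8 CPM (0.66) in TripleTg. Between the cycling cells of the libraries the median log2 ratio of the 12 targets was 2.75, and between the reference cells it was 2.76. Sp5, a transcription factor, went the other way, at 15.1 CPM in DoubleTg and 1.41 CPM in TripleTg cycling cells (-3.42) and with a ratio of -2.48 between the reference cells. So did Myc, at -0.59 between the cycling and -0.73 between the reference cells, and Ccnd1, at -0.13 (-0.30 to 0.05) and -0.54. Myc, which the study placed downstream of β-catenin, was at 82.2 against 71.7 CPM in DoubleTg (0.20) and 54.4 against 43.3 CPM in TripleTg (0.33). Of the 10 genes of its network, those ranked, all but Mxd3 and Mycn, had medians of -0.14 and 0.02. Among them Mxd1, a Myc antagonist, had opposite signs, at 1.32 and -0.71.

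The summed levels of the transgenes and their mouse counterparts were lower in cycling than in reference cells. hMETtg had a UMI in 80.6% of DoubleTg cycling cells at 270 CPM and in 85.5% of their reference cells at 504 CPM (-0.90). In TripleTg it was seen in 36.4% at 18.7 CPM and in 50.9% at 49.6 CPM (-1.40), while Epcam- Ptprc+ cells gave a background of 15.5 CPM in DoubleTg and 5.58 CPM in TripleTg. When reference cells were taken from the cluster of each cycling cell the ratios were -0.66 and -0.61. Met, the mouse receptor, was at 88.7 against 133 CPM (-0.58) and 54.3 against 73.1 CPM (-0.43). Hgf, the mouse ligand, was at 24.9 against 61.9 CPM (-1.31) and 6.44 against 13.8 CPM (-1.10), while hHGFtg was at 217 against 365 CPM (-0.75) and 31.4 against 57.2 CPM (-0.87). hHGFtg was nevertheless seen in more DoubleTg cycling cells (88.7%) than reference cells (72.6%), and in TripleTg in 34.0% and 40.6%. Its level in Epcam- Ptprc+ cells was 24.0 CPM in DoubleTg and 33.9 CPM in TripleTg, where the cycling cells were not above it. Removal of Ctnnb1 exon 3 cannot be seen in counts from the 3′ end, so the TripleTg label was read only from the Wnt targets above. Of 10 feedback genes of the MAPK pathway, those ranked had medians of 0.23 and 0.17, with Dusp6, a phosphatase of ERK, at -0.13 and 0.44. Etv4 and Etv5 in both libraries and Spry4 in TripleTg were too low to be ranked. The 15 immediate early genes had medians of -0.14 and 0.21, with Fos at -0.78 and 0.42.

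Secretory and androgen-regulated genes were mixed, and several ratios rested on few cells. Of 12 androgen-regulated genes, all ranked in DoubleTg and 6 in TripleTg, 4 and 2 were at least 2-fold lower and 2 and 1 higher, with medians of -0.45 and -0.16. Of all genes 2.94% and 2.4% were lower and 8.54% and 6.66% higher. Pbsn, probasin, was at 833 against 3383 CPM in DoubleTg (-2.02). In TripleTg it was at 0.703 against 31.0 CPM, but 1 reference cell held 97.9% of those UMIs. Msmb, β-microseminoprotein, was at 2635 against 7889 CPM in DoubleTg (-1.58), where 18 of 62 reference cells and 5 of 62 cycling cells lay in the cluster that Msmb led, and it had no UMI in TripleTg. Sbp, the spermine-binding protein of the ventral lobe, was at 12863 against 12968 CPM in DoubleTg (-0.01), where 1 reference cell held 65.7% of the UMIs. Spink1, a trypsin inhibitor, was at 5501 against 2416 CPM in DoubleTg (1.19), although with 10 reference cells per cycling cell the ratio was -1.60. Fkbp5, a chaperone induced by the androgen receptor, was at 43.2 against 58.9 CPM in DoubleTg (-0.45) and at 5.27 against 2.11 CPM in TripleTg (1.32, 0.75 to 1.92).

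Lineage markers varied by gene. Of 8 luminal genes the medians were 0.02 and -0.15, and of 8 basal genes 0.27 and -0.18. Krt5, a basal keratin, was at 154 against 88.4 CPM in DoubleTg (0.81) and 97.6 against 112 CPM in TripleTg (-0.21), and Krt15 was at 612 against 360 CPM (0.77) and 35.4 against 80.5 CPM (-1.18). The 7 proximal luminal genes had medians of -0.24 and -0.62. Psca, prostate stem cell antigen, was lower in both libraries, 139 against 535 CPM (-1.95) and 6.68 against 33.2 CPM (-2.31), and stayed so within clusters at -1.55 and -2.29. Clu, clusterin, was at 12902 against 23373 CPM (-0.86) and 3129 against 7817 CPM (-1.32). Of 12 squamous genes 7 and 9 were ranked, with medians of 0.58 and -0.31. The stress keratin Krt16 was at 135 against 21.9 CPM in DoubleTg (2.62), where 1 cycling cell held 64.0% of the UMIs, and at 61.4 against 128 CPM in TripleTg (-1.06).

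Glycolytic enzymes had medians a little above those of all genes. Of 14 genes, all ranked, 11 in DoubleTg and 10 in TripleTg had ratios above 0, against 60.7% and 64.3% of all genes, and 3 were at least 2-fold higher in DoubleTg and 0 in TripleTg, against 8.54% and 6.66%, with medians of 0.32 and 0.34. Eno1, enolase, was at 284 against 109 CPM (1.38) and 137 against 104 CPM (0.39). Gapdh was at 1540 against 745 CPM (1.05) and 1324 against 966 CPM (0.45), and Ldha, lactate dehydrogenase, at 0.35 and 0.64.

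The 12 genes whose smaller ratio over both libraries was highest were Birc5, 2810417H13Rik, Cdca3, Mki67, Ccnb2, Top2a, Cenpf, Cdk1, Prc1, Lockd, Hist1h1b and Cdca8, of which 7 are rule genes. In DoubleTg the reference sums of Birc5, 2810417H13Rik, Cdca3, Mki67, Ccnb2, Cenpf and Cdk1 were under 3 UMIs. The rank of these genes therefore follows their level in the DoubleTg cycling cells. 2810417H13Rik, which encodes the PCNA-associated factor PCLAF, was at 120 CPM against no UMI in DoubleTg, at least 6.93, and at 114 against 0.820 CPM in TripleTg, 7.12 (6.37 to 8.0). Cdca3, which triggers entry into mitosis, was at 95.6 CPM against 2 UMIs and at 90.6 against 0.820 CPM (6.79). Lockd, a long noncoding RNA beside Cdkn1b, was at 82.8 against 0.982 CPM, 6.4 (4.83 to 8.69), and at 54.9 against 0.820 CPM, 6.07. These genes take part in the cycle itself or, for Lockd, lie beside a gene that does.

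Of the 12 genes at the other end, 4 (Svs2, Svs4, Svs5 and Pate4) were on the list of seminal vesicle genes, which encode secreted proteins of the gland next to the prostate. Others were outside that list but among the leading genes of seminal vesicle-like clusters. These were Crisp1, Cdo1 and Wfdc15b in DoubleTg and Crisp1, Sprr2f, Wfdc15b and Serpine2 in TripleTg. The 7 seminal vesicle genes summed to 64.2 against 35185 CPM in DoubleTg and to 9217 against 83545 CPM in TripleTg. Svs2, a semen clotting protein, was at 31.1 against 17296 CPM in DoubleTg (-9.12), where 1 reference cell held 47.6% of the UMIs, and at 653 against 4593 CPM in TripleTg (-2.81). Svs4 was at 2.95 against 1201 CPM (-8.67) and 4897 against 39259 CPM (-3.00), and had a UMI in every one of the 379 cycling and 379 reference cells of TripleTg. In the DoubleTg seminal vesicle-like cluster lay 4 of 62 reference cells and no cycling cell, and in the pair of such TripleTg clusters lay 50 of 379 reference and 8 of 379 cycling cells. Within clusters the ratios of Svs2 were 0.26 and -1.20 and those of Svs4 0.36 and -0.61. Svs5, Pate4, Crisp1, Sprr2f, Cdo1, Wfdc15b and A630095E13Rik were lower by at least 1.69 on the log2 scale in both libraries, and in DoubleTg 1 reference cell held 99.7% of the Crisp1 UMIs and 100% of those of Sprr2f. Serpine2, a protease inhibitor, was at -1.45 and -1.86, 9530053A07Rik at -1.10 and -1.65, and Gm20186 at -1.05 and -1.16, of which Gm20186 had nearly the same ratios within clusters, -1.02 and -1.16. The direction of several did not hold under other choices of cells. Within clusters Cdo1 was at 1.57 and Svs5 at 0.0933 in DoubleTg and Wfdc15b at 0.48 in TripleTg, and with no upper limit on genes Crisp1 was at 0.63 and Wfdc15b at 1.14 in DoubleTg.

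The libraries differed most in these seminal vesicle genes and in a few others. Ube2c was also among the 8 genes with the highest difference, but as a rule gene its ratio was set by the choice of cells. The interferon-induced genes Isg15 and Bst2 were at 159 against 75.3 CPM (1.08) and 160 against 61.2 CPM (1.38) in DoubleTg, and at 15.3 against 67.9 CPM (-2.15) and 35.3 against 64.8 CPM (-0.88) in TripleTg. Within clusters Isg15 was at 1.19 and -0.65, and Bst2 at 1.35 and -0.16. Hbb-bs, a haemoglobin gene of red cells, was at 70.0 CPM in DoubleTg cycling cells, where 1 cell held 98.6% of the UMIs, and at 1060 against 406 CPM in TripleTg (1.39), which within clusters turned to -0.41. Plac8 had ratios of -0.55 and -2.85, 9530003J23Rik of 0.35 and -2.20, and Ecscr of 2.14 and 0.06. In TripleTg, Plac8 was among the leading genes of the seminal vesicle-like cluster led by Crisp1, and 9530003J23Rik among those of the one led by Sva. Those clusters held 41 and 9 reference cells against 6 and 2 cycling cells. No difference between the libraries was tested.

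Cycling cells were spread over most clusters of the Epcam+ Ptprc- cells of each library, clustered without the cell cycle genes. In each library 5 of the clusters had 3 or more markers of immune cells, fibroblasts, endothelium or smooth muscle at 2-fold or higher. In DoubleTg the highest share among clusters of 100 cells or more was in one led by the interferon genes Rsad2, Ifit1 and Isg15, 3 of 150 cells (2.0%, 0.414 to 5.73). A cluster led by Prr9, Tcaf2 and Btc had 14 of 802 (1.75%, 0.958 to 2.91) and held 22.6% of the cycling cells. One led by Reg3b, Ppp1r1b and Pglyrp1 had 10 of 618 (1.62%), and one led by Spink5, Cxcl17 and Tff3 had 7 of 510 (1.37%). Intervals of these clusters overlap. Thinned to 10000 UMIs they had 2 of 144 (1.39%), 6 of 777 (0.772%), 2 of 596 (0.336%) and 2 of 492 (0.407%), the last 2 at or below the thinned share of the library, 0.408%. The basal-like cells were uneven, with 8 of 875 (0.914%, 0.396 to 1.79) in the cluster led by Lgals7, Krt5 and Aqp3 and 0 of 985, which allows up to 0.374%, in the one led by Apoe, Krt14 and Krt17, whose median depth was 10000 UMIs against 16012. In cells thinned to 10000 UMIs these were 5 of 788 and 0 of 493. Among clusters led by secretory genes, the one led by 9530053A07Rik, A630095E13Rik and Tgm4 had 3 of 366 (0.820%, 0.169 to 2.38) and the one led by Msmb 5 of 645 (0.775%, 0.252 to 1.80), both close to the share of the whole library. The one led by Sbp had 1 of 549 (0.182%, 0.00461 to 1.01) and was the deepest with a median of 56336 UMIs.

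In TripleTg the highest share was in a cluster that had 122 of 747 cells (16.3%, 13.8 to 19.2) and held 32.2% of all cycling cells, and Hist1h1b, Top2a and Ube2c still led it after those genes were left out of the clustering. A small cluster led by the haemoglobin gene Hbb-bs had 9 of 62 (14.5%, 6.86 to 25.8) and one led by Rgs5, which had 6 smooth muscle and 3 fibroblast markers at 2-fold or higher, 4 of 52 (7.69%, 2.14 to 18.5), whose intervals overlap those of other clusters. Thinned to 10000 UMIs, the Hist1h1b cluster had 74 of 675 (11.0%) and the Hbb-bs cluster 6 of 44 (13.6%). Their order thus turned, and their intervals overlap. Clusters led by Coch, Pnliprp1 and Defb50 and by alpha-defensin genes had 54 of 804 (6.72%, 5.09 to 8.67) and 52 of 929 (5.6%). Both shares lay above that of the whole library, 4.93%, but thinned to 10000 UMIs both lay below its thinned share, 3.36%. The basal-like cluster led by Il33 and Ivl had 22 of 545 (4.04%) and the one led by Krt15, S100a4 and Fmod 7 of 294 (2.38%). Thinned to 10000 UMIs the order turned, with 12 of 509 (2.36%) and 5 of 154 (3.25%), and these intervals overlap. A cluster with squamous markers, led by Cnfn and Tchh, had 6 of 347 (1.73%), and the seminal vesicle-like clusters led by Sva and by Crisp1 had 2 of 117 (1.71%) and 6 of 392 (1.53%). Shallow clusters of either library, left unnamed, held 2 of 1024 and 3 of 803 cells.

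**Figure D4:**
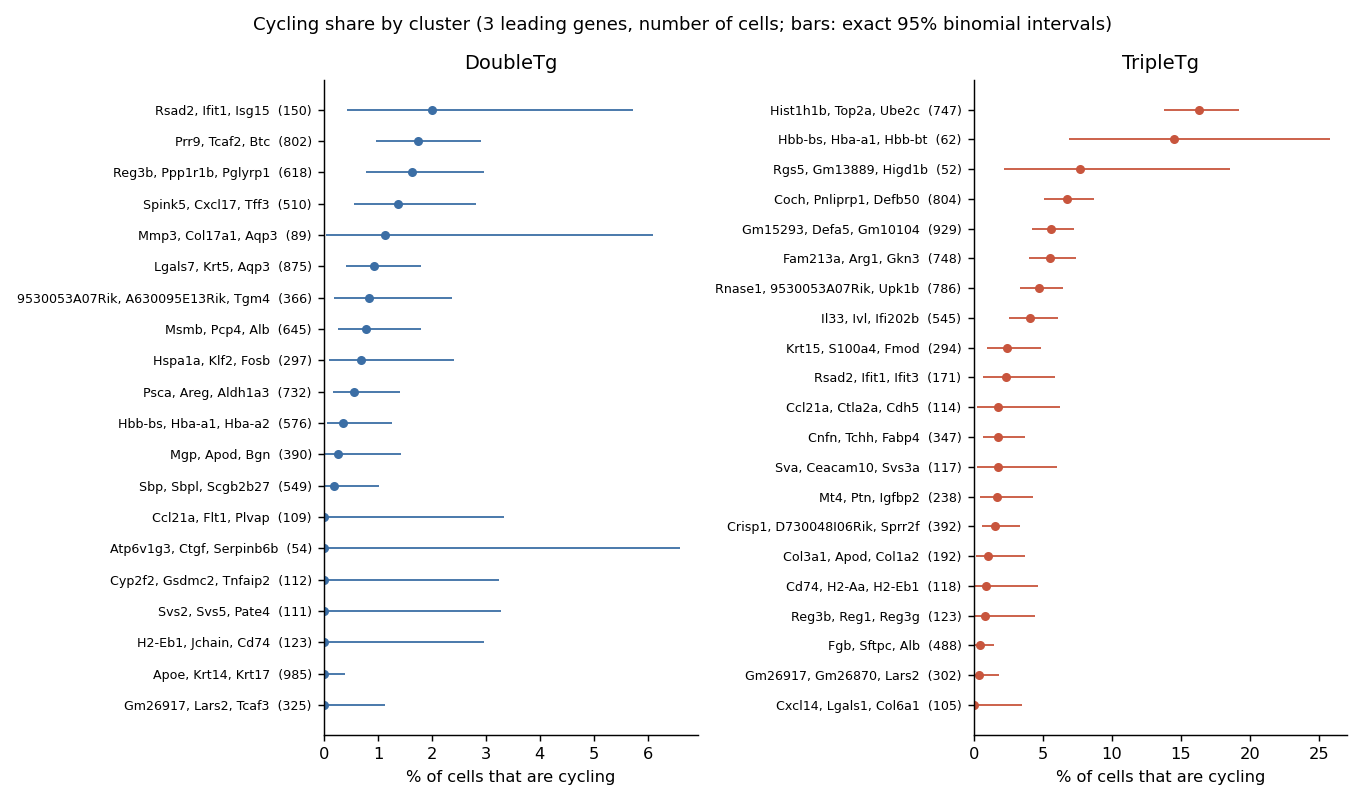
Percent of cells that met the rule (horizontal axis, exact 95% binomial intervals as bars) in each cluster of Epcam+ Ptprc- cells (vertical axis, named by its 3 leading genes with its number of cells), DoubleTg in blue and TripleTg in red. DoubleTg clusters of 100 cells or more lie at or below 2.0%, and 2 TripleTg clusters lie at 16.3% and 14.5%.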

How the data were processed

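Single-cell RNA-seq (10x Genomics 3′, v3 chemistry) of 1 DoubleTg and 1 TripleTg library was deposited by the authors as matrices of raw UMI counts per gene and cell, made with Cell Ranger on the mm10 build with both transgene sequences added. The submitters' processing notes give version 6.0.2 and the header of the DoubleTg matrix 6.1.1. The TripleTg matrix held only cells within the limits of 200 to 7000 genes and 15% mitochondrial UMIs, so it had been filtered before deposit, and both matrices held cells of 500 UMIs or more. Depth was 238201039 UMIs over the DoubleTg and 203863489 over the TripleTg Epcam+ Ptprc- cells.

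Each member was paired with the unused cell of 0 or 1 rule genes nearest in UMIs. Counts were summed over cells and given as counts per 1e+06 UMIs (CPM), and log2 ratios were taken with sums under 3 UMIs set to 3. Intervals are exact binomial for shares and conditional binomial for ratios, and because 1 library stood for each genotype no test was run. Genes of 5 CPM or more in either group were ranked. Members and lists were chosen with earlier results of these data known. Named genes were the 14 rule genes, list members with the highest and lowest ratios at 20 CPM or more and genes the study names, the 12 highest and 12 lowest in both libraries at 50 CPM or more among 2268 genes, and the 8 at each end of the difference between libraries. Other list members named were picked after their values were seen. The genes Sgo1, Sgo2a, Knl1 and Utp4 were not found under those symbols. Cells were clustered with scanpy 1.11.5 (2000 variable genes, 20 components, 15 neighbours, Leiden resolution 1) after 872 genes, listed or past 2-fold in members, were left out. A cluster was called X-like from marker lists. Scrublet marked 201 of the DoubleTg and 0 of the TripleTg Epcam+ Ptprc- cells and was not used for the latter. numpy 2.4.6, scipy 1.17.1, pandas 2.3.3, R 4.3.3 and edgeR 4.0.16 (TMM factors only) were used. On simulated data with 200 of 28000 genes changed, 193 changes in DoubleTg and 200 in TripleTg were recovered within 0.5 log2 units, and 188 and 187 intervals covered the true value. The simulated sums held counting error alone, which the intervals assume, and only genes at 20 CPM or more were changed. Spread between cells and changes in genes silent in reference cells were therefore not checked. Gene positions came from GENCODE mouse release 21 for 27722 of 28000 features. Alternatives were TMM scaling, other reference cells, thinned depth, other limits of the rule and of CPM, and removal of clusters or doublets.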

Additional observations from a re-analysis of the deposited data

Results flagged for a closer look

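Several values of the cycling cells differed in sign between the libraries or came from cells outside the limits. No difference between libraries was tested, since each genotype was 1 library.

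Fibroblast markers had a median log2 ratio of -0.64 over 2 ranked genes in DoubleTg and 0.51 over 5 in TripleTg. Smooth muscle markers had -3.10 and 1.10, over 3 ranked genes in each, and 1 DoubleTg reference cell held 97.1% of the Acta2 UMIs. Their summed levels were 10.8 and 35.6 CPM in the cycling cells. The TripleTg signs did not hold with other reference cells. Within clusters Tagln was at -0.97, Col1a1 at -0.72 and Lum at -0.37 against main ratios of 1.36, 1.10 and 1.24, and against all reference cells Acta2 was at -0.25 against 1.10.

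The stress keratin Krt16 was at 2.62 in DoubleTg and -1.06 in TripleTg. It was seen in 17 of 62 DoubleTg cycling cells, and 1 cell held 64.0% of its UMIs. Spink1 was at 1.19 and -2.46, and 1 DoubleTg cycling cell held 33.2% of its UMIs. In TripleTg it was among the leading genes of the seminal vesicle-like cluster led by Sva, which held more reference than cycling cells. The interferon-induced gene Isg15 was at 1.08 and -2.15, and was detected in 53.2% of DoubleTg and 23.7% of TripleTg cycling cells.

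Beyond the limit of 7000 genes, 60 DoubleTg cells met the rule on the 14 genes. They held too many genes to enter the comparisons, and the TripleTg matrix held no such cells. Among Epcam+ Ptprc+ cells, which carried UMIs of both an epithelial and a leukocyte gene, 7 of 490 in DoubleTg (1.43%, 0.576 to 2.92) and 42 of 724 in TripleTg (5.80%, 4.21 to 7.76) met it, a ratio of 4.06 (1.81 to 10.7). Doublets among them were not tested in TripleTg.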

How the results depend on the processing

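No paired analysis was possible because each genotype was 1 library. Not run were the removal of Scrublet doublets and the lifting of the gene limit in TripleTg. Use of 10 reference cells per member, no upper gene limit for the ratios, and removal of clusters of other cell types were chosen after seeing the data. The cause of each move below was not tested.

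The DoubleTg share of 0.733% was 1.24% with 4 of 14 genes, 0.556% with 8, 0.408% thinned to 10000 UMIs and 1.38% with no upper limit on genes, and the TripleTg share of 4.93% was 6.61%, 3.86% and 3.36% under the first 3. In DoubleTg, genes 2-fold higher (791) numbered 142 at 50 CPM or more, and genes 2-fold lower (272) numbered 48 there, 583 with no filter, 158 with 10 reference cells per member, 617 thinned and 98 with no upper limit. In TripleTg, genes 2-fold higher (585) numbered 140 at 50 CPM or more and 1266 with no filter, and genes 2-fold lower (211) numbered 60, 896, 108 within clusters and 321 against all reference cells.

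The DoubleTg mitotic median of 3.37 was 3.24 with TMM factors, 3.39 within clusters, 5.05 against all reference cells, 5.10 with 10 per member, 1.58 thinned, 3.27 with 8 rule genes, 3.37 without clusters of other cell types or without doublets, and 4.50 with no upper limit, and the TripleTg median of 4.72 was 3.54 thinned. The ribosomal median of DoubleTg was -0.00824 with TMM factors, 0.19 against all reference cells, 0.22 with 10 per member, 0.0725 thinned and 0.30 with no upper limit, and that of TripleTg was 0.00391 with TMM factors, -0.0511 within clusters, 0.0901 thinned and 0.11 with 8 rule genes. The DoubleTg nuclear transport median was 0.80 with no upper limit. The other 77 summary values stayed within the limits set for them.

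Among genes named by rank, signs turned within clusters for Cdo1 (1.57), Svs2 (0.26), Svs4 (0.36) and Svs5 (0.0933) in DoubleTg and for Hbb-bs (-0.41) and Wfdc15b (0.48) in TripleTg. In DoubleTg with no upper limit they turned for Crisp1 (0.63), Svs4 (0.11), Wfdc15b (1.14) and Spink1 (-2.78). Spink1 was also at -1.51 against all reference cells and -1.60 with 10 per member, and Hbb-bs at -1.38 against all reference cells. With 8 rule genes, or without clusters of other cell types, the DoubleTg sums of Hbb-bs were at or under 3 UMIs in both groups. Its ratios there, -0.000312 and -0.000261, were set by that floor and give no sign. Of listed genes past 2-fold, Col1a1, Lum and Tagln also turned in TripleTg within clusters, against all reference cells and with 10 per member, Acta2 against all, and in DoubleTg Cd74 and Krt17 against all, Steap4 thinned and Cd52 with no upper limit. Depth limits the DoubleTg ratios, where 3 UMIs are 0.982 CPM.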
